A study of Mus musculus with 2 samples.

Results

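The genes described here are Myc and 39 genes whose products build ribosomes in and around the nucleolus. They were chosen by symbol, and all 40 were found among the 32285 genes of a single-cell RNA library from mouse thymus. The 39 genes without Myc are called the nucleolar genes, and their summed level is the nucleolar sum. Levels are counts per 1000000 UMIs (CPM), where a UMI marks 1 captured transcript molecule.

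Ribosomes are assembled in the nucleolus, where RNA polymerase I copies the ribosomal DNA and small nucleolar ribonucleoproteins modify the transcript. Large sets of assembly factors then cut and fold it into the 2 ribosomal subunits. MYC, a transcription factor that binds DNA together with MAX, is known as an activator of many of these genes and is induced in T cells by antigen receptor signals and by cytokines. Regulatory T (Treg) cells arise in the thymus from CD4 single-positive thymocytes that receive strong T cell receptor signals, pass through precursor stages and mature under IL-2.

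Thymic cells of the Treg lineage came from 1 Lta-/- mouse and 1 Foxp3eGFP mouse, both C57BL/6. Both carried the Foxp3eGFP reporter, and in the Lta-/- mouse the gene of the cytokine lymphotoxin alpha was also inactivated. The sources used here do not state age or sex. After depletion of CD8+ and CD11c+ cells, live CD4+ thymocytes with CD3e and without CD8 or CCR6 were sorted for CD25 (the protein of Il2ra), for eGFP or for both. The 2 mice were marked with antibody hashtags and captured together in 1 well. Each genotype is 1 mouse and cells are not replicates, so differences are given without tests. The intervals given are exact 95% ones for counting error alone, and genotype and individual mouse cannot be told apart.

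After filtering, 4638 cells remained, with 712 to 52968 UMIs per cell and a median of 5555. The Lta-/- mouse gave 2244 cells with 14054827 UMIs, and the Foxp3eGFP mouse 2209 cells with 15010916 UMIs. Another 185 cells (3.99%) carried both hashtags, entered no genotype comparison and were kept elsewhere. Lta itself had 72 UMIs in Lta-/- cells, against 509 in Foxp3eGFP cells. Foxp3 or Il2ra UMIs were found in only part of the sort, since 3073 cells had neither; a cell without a UMI of a gene may still express it, and classes by UMIs are to be read so. The CD4 single-positive T cell markers Cd3e, Cd3d, Cd4, Trac, Lck and Cd28 summed to between 3277 and 3958 CPM in the classes by Tnfrsf9, Nr4a1, S1pr1, Mki67 and Myc, in cells with Il2ra only and Foxp3 only and in both genotypes.

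The nucleolar genes were detected in almost every cell. They gave 166014 UMIs, 0.533% of all UMIs, with a median of 20 per cell, and 12 cells had none. Npm1, which encodes the nucleolar chaperone nucleophosmin, stood at 1869 CPM and was found in 97.1% of cells. Ncl, which encodes nucleolin, stood at 1003 CPM and was found in 88.8% of cells. These genes held 53.9% of the nucleolar UMIs between them, so the nucleolar sum is mostly theirs, and the median over members, which weights each gene the same, is given beside it in each comparison. Npm1 also has processed pseudogene copies in the mouse genome. How reads shared with such copies were counted is not given in the sources used here, so its level is uncertain.

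Below Npm1 and Ncl the members covered a wide range of levels. The RNA helicase gene Ddx21 had 182.5 CPM, the box C/D snoRNP genes Fbl, Nop58 and Nop56 had 177.5, 169.8 and 139.6 CPM, and the H/ACA snoRNP genes Nhp2, Dkc1 and Gar1 had 143.1, 101.3 and 78.9 CPM. Both kinds of snoRNP guide modification of ribosomal RNA. Npm3 had 143 CPM, and Nolc1, Ddx18 and Wdr43 had 105, 101 and 99.4 CPM. Gnl3, the nucleolar GTPase nucleostemin, stood at 96.3 CPM, close to Ebna1bp2, a large-subunit factor, at 92.9 CPM. The lowest were Polr1b, a subunit of RNA polymerase I, at 6.49 CPM in 3.9% of cells and the small-subunit assembly factor gene Rrp12 at 6.94 CPM in 4.23% of cells. Myc, which lies at chr15:61985341-61990361 in the GRCm38.p6 build, had 48.4 CPM (46.0 to 50.9), with 1507 UMIs in 18.3% of cells and at most 12 in a cell. No class of these cells is known to lack the nucleolar genes or Myc, so the share of such UMIs that came from free RNA was not measured. Levels of different genes are UMIs of 3′ ends and do not scale with transcript length.

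A canonical E-box, CACGTG, is the core sequence that MYC with MAX is known to bind, and it reads the same on both strands. RefSeq promoters of the GRCm38.p6 build, which run from 250 bases before to 50 bases after an annotated start of a gene, were available for 34 members. Of these, 8 held CACGTG (23.5%, exact interval 10.7% to 41.2%), against 8.09% of 27025 genes with a promoter and 12.3% of the 8445 that were measured here. All 8 lay in the last 150 bases of the window, where 8.04% of the measured genes held the motif. They are printed because they show where the motif sits in each gene, 30 bases on the gene's own strand with the motif in capitals. A match describes the letters only and is no evidence of binding.
Ltv1, chr10:13193092-13193121, minus strand: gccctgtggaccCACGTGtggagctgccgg
Mettl1, chr10:127041950-127041979, plus strand: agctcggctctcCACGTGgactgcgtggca
Mybbp1a, chr11:72441347-72441376, plus strand: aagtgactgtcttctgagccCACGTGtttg
Nop2, chr6:125131811-125131840, plus strand: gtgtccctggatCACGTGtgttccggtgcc
Pes1, chr11:3963965-3963994, plus strand: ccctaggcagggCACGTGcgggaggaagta
Tsr1, chr11:74898092-74898121, plus strand: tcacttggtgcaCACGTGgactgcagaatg
Utp20, chr10:88826765-88826794, minus strand: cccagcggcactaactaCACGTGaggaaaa
Wdr43, chr17:71616220-71616249, plus strand: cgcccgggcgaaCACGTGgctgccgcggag

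In 7 of these the motif began 3 to 41 bases after the start to which the promoter belongs. In Nop2, an rRNA methyltransferase gene, it began before the start, at base -60. For Mettl1 and Wdr43 that start lies downstream of the outermost annotated start of the gene. The 8 genes belong to different steps. Mybbp1a encodes a nucleolar MYB-binding protein, Pes1 and Nop2 act on the large subunit, Utp20, Wdr43, Ltv1 and Tsr1 on the small subunit, and Mettl1 encodes a methyltransferase that is best known for modifying transfer RNA, so it is not a ribosome assembly factor in the strict sense.

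Members were detected in the same cells. Each cell was thinned to 3000 UMIs, which 4325 cells allowed and 313 did not. For each gene the UMIs of the other nucleolar genes were then compared between cells with and without it. Of the 33 nucleolar genes with at least 200 cells on each side, all 33 had more nucleolar UMIs beside them than cells without, with a median log2 ratio of 0.76. Over all 6145 genes treated this way the median was -0.02, and 47.3% lay above 0. Mettl1 had the highest ratio among members, 1.10, with 26.7 nucleolar UMIs in cells that held it against 12.4 in cells that did not. Nop16, a large-subunit factor, followed at 0.94, and Polr1c, a subunit shared by RNA polymerases I and III, was lowest at 0.43. Myc itself had 0.48. Cells of 1 capture share library and depth, so these ratios describe the data and were not tested.

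The nucleolar genes divided by Tnfrsf9, which encodes the costimulatory receptor 4-1BB, a marker of recently activated Treg precursors. Summed, the nucleolar genes had 7243 CPM in the 1553 cells with Tnfrsf9 and 4165 CPM in the 3085 cells without it, a 1.74-fold difference (log2 0.80, interval 0.78 to 0.81). Of the 39 nucleolar genes, 34 were at least 1.5-fold higher and 0 lower, whereas 8.28% of 10812 genes were higher and 8.62% lower. The median log2 ratio was 0.75 over the members and 0.02 over all genes, and both mice gave 34 members higher. In the Lta-/- mouse the nucleolar sum was 7243 CPM with Tnfrsf9 and 4166 CPM without, and in the Foxp3eGFP mouse it was 7358 and 4212 CPM. The 2 mice thus differed far less from each other than the classes did.

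**Figure D1:**
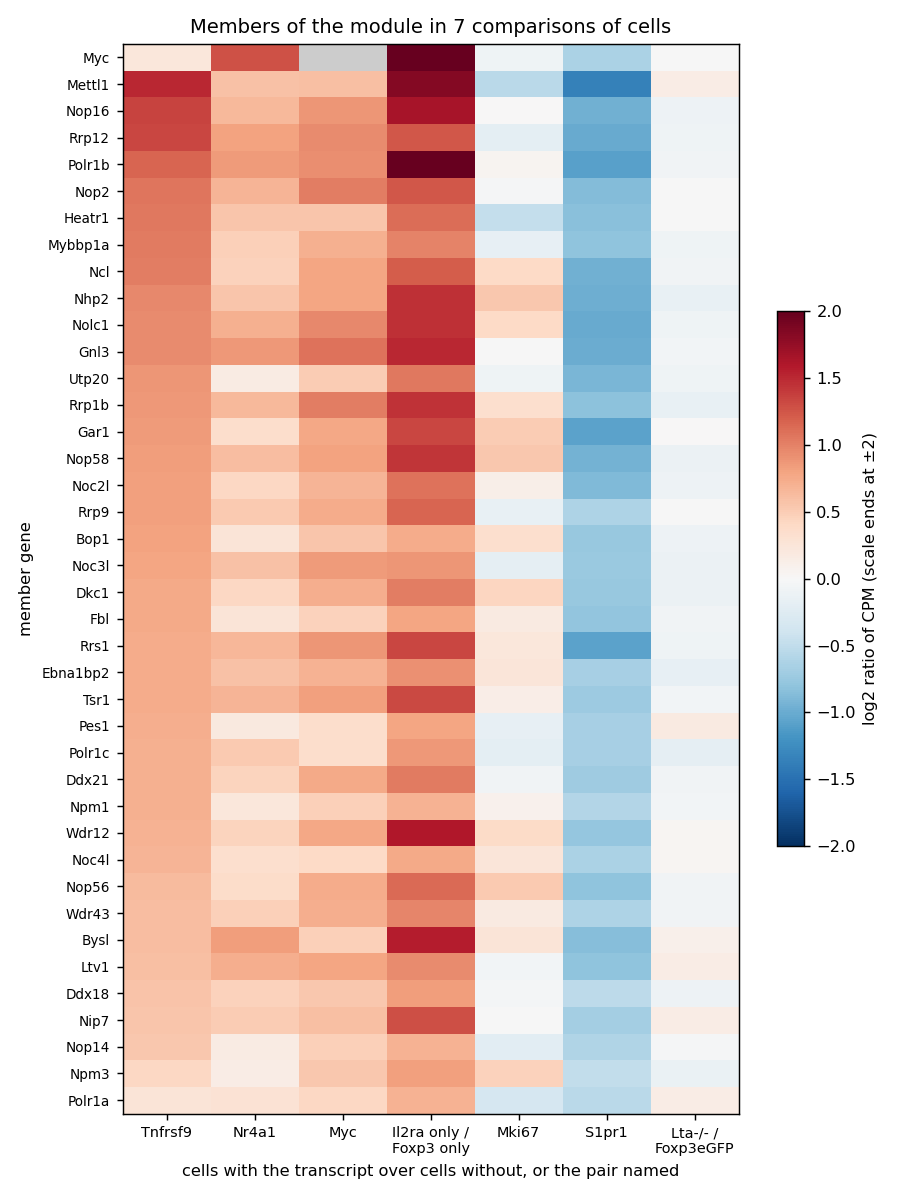
Log2 ratio of CPM for each of the 40 members (rows) in 7 comparisons of cells (columns), in each of which the class named first is on top of the ratio; red is higher, blue lower, and grey marks Myc in cells chosen by Myc. The nucleolar genes are red throughout the columns for Tnfrsf9, Myc and Il2ra only over Foxp3 only, blue throughout the S1pr1 column and nearly white for Lta-/- over Foxp3eGFP, while Myc is dark red for Nr4a1 and pale for Tnfrsf9.

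Genes of every step listed were higher with Tnfrsf9, by unequal amounts. Mettl1 was the most different member, at 80.3 CPM with Tnfrsf9 and 28.3 CPM without (log2 1.51, interval 1.35 to 1.66). Its values were 88.3 and 30.7 CPM in the Lta-/- mouse, and in the Foxp3eGFP mouse 75.1 and 26.3 CPM. The classes were well apart in each mouse. Nop16 had 59.0 CPM with Tnfrsf9 and 24.4 CPM without in the Lta-/- mouse, and 62.6 and 23.3 CPM in the Foxp3eGFP mouse. Ncl had 1478 and 715 CPM in the Lta-/- mouse, and 1469 and 741 CPM in the Foxp3eGFP mouse. Npm1 had 2448 and 1520 CPM in the Lta-/- mouse, and 2533 and 1507 CPM in the Foxp3eGFP mouse. For all 3 genes the mice were alike within a class. Over both mice the next largest ratios were those of Nop16 (log2 1.36), Rrp12 (1.33), Polr1b (1.17), Nop2 (1.06) and Heatr1 (1.06), a factor that acts early on the small subunit. Ncl stood at log2 1.02 and Npm1 at 0.72. The box C/D genes Nop58, Fbl and Nop56 lay at 0.83, 0.75 and 0.64, and the H/ACA genes Nhp2, Gar1 and Dkc1 at 0.96, 0.85 and 0.75. Pes1, Bop1 and Wdr12, which form the PeBoW complex of the large subunit, lay at 0.73, 0.81 and 0.69. Subunits of 1 machine could differ by unlike amounts. Polr1a, the largest subunit of RNA polymerase I, had 24.1 CPM with Tnfrsf9 and 20.2 CPM without (log2 0.26, interval 0.03 to 0.48), below the 1.5-fold line, and Npm3, a relative of Npm1, reached log2 0.41.

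The nucleolar sum was higher at each step in the number of Tnfrsf9 UMIs, 4165 CPM at 0, 5064 at 1, 5655 at 2, 7388 at 3 to 5 and 10357 CPM at 6 or more. Myc did not follow in the same way, at 45.4, 43.2, 37.2, 55.1 and 71.4 CPM over the same classes, and over all cells it was 53.3 CPM with Tnfrsf9 and 45.4 CPM without (log2 0.23, interval 0.08 to 0.38), under 1.5-fold. Depth ran with the nucleolar genes. In 5 equal groups of cells by total UMIs, low to high, the nucleolar sum was 3002, 3510, 4202, 5430 and 6921 CPM, and cells with Tnfrsf9 had a median of 6351 UMIs against 5175 without. Within these groups the log2 ratio by Tnfrsf9 was 0.25, 0.42, 0.64, 0.75 and 0.72, and their mean was 0.56, with 21 members at least 1.5-fold higher. After thinning, with classes set by the UMIs left, it was 0.72 with 31 members higher.

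The spread between cells was wider on the Tnfrsf9 side. At 3000 UMIs per cell the median cell had 13 nucleolar UMIs with Tnfrsf9 and 10 without, but the 90th percentiles were 43 and 21. Cells with at least 30 nucleolar UMIs, a limit chosen after the values were seen, made up 22.5% of those with Tnfrsf9 and 3.77% of those without. Of all 372 cells past that limit, 67.5% held Tnfrsf9, against 21.9% of the cells under it. S1pr1 was found in 6.72% of them, against 44.0% of the cells under it. Foxp3 was found in 4.30%, against 14.7%. For Mki67 the shares were 8.06% and 7.06%, with intervals that overlap.

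**Figure D2:**
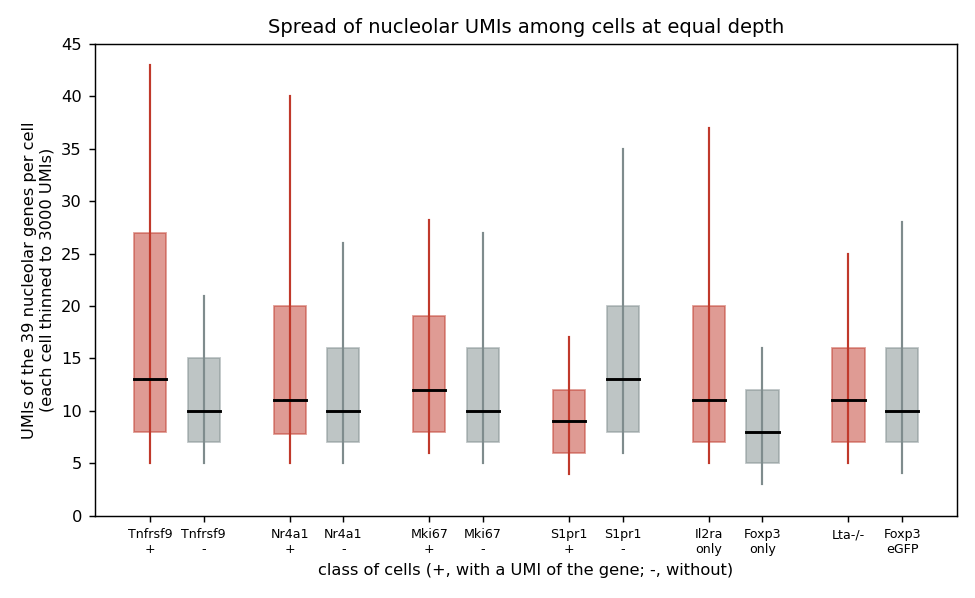
UMIs of the 39 nucleolar genes per cell after each cell was thinned to 3000 UMIs, for pairs of classes of cells; the black line is the median, the box the 25th to 75th percentile and the thin line the 10th to 90th. The medians are 13 and 10 with and without Tnfrsf9, and 11 and 8 with Il2ra only and Foxp3 only. With and without S1pr1 they are 9 and 13, the second above the 75th percentile of cells with S1pr1 (12). They are 11 and 10 by Nr4a1, 12 and 10 by Mki67, and 11 and 10 in Lta-/- and Foxp3eGFP cells. The upper tail is long in cells with Tnfrsf9 (90th percentile 43) and short in cells with S1pr1 (90th percentile 17).

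S1pr1, the receptor that mature thymocytes use to leave the thymus, marked the opposite end. The nucleolar sum was 3999 CPM in 2491 cells with S1pr1 and 6737 CPM in 2147 cells without (log2 -0.75, interval -0.77 to -0.74). Of the 39 genes 36 were at least 1.5-fold lower and 0 higher, where 11.8% of all genes were lower and 6.22% higher. The median log2 ratio was -0.80 over the members and -0.07 over all genes. Median depth differed little between these classes (5334 with S1pr1 and 5785 without). After thinning 35 members were lower, and averaged over the 5 depth groups 26 were. Foxp3 was found in 30.7% of cells with S1pr1 and in 8.62% of cells without. Mettl1 again differed most, at 27.3 CPM with S1pr1 and 69.8 CPM without (log2 -1.35). It had 25.7 CPM with S1pr1 and 73.9 CPM without in the Lta-/- mouse, and 25.7 and 65.6 CPM in the Foxp3eGFP mouse. Polr1b (-1.09), Rrs1 (-1.08), a large-subunit factor, Gar1 (-1.07) and Nolc1 (-1.01), a chaperone of snoRNPs, followed. Npm3 (-0.48), Ddx18 (-0.52) and Polr1a (-0.54) were the 3 that lay inside 1.5-fold. Myc had 38.1 CPM with S1pr1 and 59.3 CPM without (log2 -0.64, interval -0.79 to -0.49). By mouse it had 36.0 and 61.7 CPM in the Lta-/- mouse, and 41.1 and 57.4 CPM in the Foxp3eGFP mouse, lower with S1pr1 in each. Markers of other cells differed with S1pr1 too, and not all in 1 direction. Those of B cells, 2 of 2 higher, summed to 9.39 CPM with S1pr1 and 4.42 CPM without. Those of plasma cells, 2 of 4 higher and 1 lower, summed to 330 and 333 CPM. Double-positive thymocyte markers, 5 of 6 measured ones lower, summed to 41.4 CPM with S1pr1 and 138 CPM without, myeloid markers, 4 of 5 lower, to 113 and 248 CPM, and natural killer and innate lymphoid markers, 3 of 3 lower, to 16.8 and 48.6 CPM. Without the cells with at least 3 UMIs of double-positive, B, plasma, myeloid or erythroid markers 35 members were lower, and the part of natural killer and innate lymphoid cells was not tested.

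Tnfrsf9 and S1pr1 together ordered the cells further. Nucleolar levels were 8748 CPM in 909 cells with Tnfrsf9 and without S1pr1, and 5009 CPM in 644 cells with both. They were 3572 CPM in 1847 cells with S1pr1 alone, and 4987 CPM in 1238 cells with neither. These 4 levels were 8660, 4756, 3591 and 4885 CPM in the Lta-/- mouse, and in the Foxp3eGFP mouse 8861, 4972, 3533 and 5154 CPM. The order of the highest and the lowest class was the same in both mice, and the classes with both and with neither lay close together. Myc in the same 4 classes, in the same order, stood at 68.1, 31.3, 40.9 and 51.6 CPM. Tnfrsf9 without S1pr1 over neither gave a Myc log2 ratio of 0.40 (interval 0.21 to 0.59). It was 0.61 in the Lta-/- mouse and 0.19 (interval -0.10 to 0.47) in the Foxp3eGFP mouse. Plasma cell markers summed to 8.81 CPM with Tnfrsf9 and 528 CPM without, with 4 of 4 measured markers lower, and 13 of 20 proliferation genes were lower too. Double-positive thymocyte markers summed to 58.6 and 106 CPM, and the gamma-delta T cell markers to 28.4 and 55.7 CPM. Without the cells that carried at least 3 UMIs of markers of B, plasma, myeloid and erythroid cells or of double-positive thymocytes, the Tnfrsf9 ratio was larger, at log2 0.88.

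Foxp3, the transcription factor that defines Treg cells, and Il2ra split the sort into 4 classes. Nucleolar levels were 7413 CPM in 615 cells with Il2ra only and 3735 CPM in 524 cells with Foxp3 only, a 1.98-fold difference (log2 0.99, interval 0.96 to 1.02). All 39 nucleolar genes were at least 1.5-fold higher with Il2ra only, where 12% of 8466 genes were higher and 7.42% lower. The median log2 ratio was 1.12 over the members and 0.02 over all genes. The sum was 4803 CPM in 426 cells with both and 5198 CPM in 3073 cells with neither, so cells with Il2ra were high where Foxp3 was not found and not where it was. Cells with Il2ra only held more UMIs (median 5915) than cells with Foxp3 only (4743). Thinned to equal depth, the log2 ratio was 0.79 and 30 members were at least 1.5-fold higher. These classes overlap with those by the other genes. Tnfrsf9 was found in 51.9% of cells with Il2ra only and in 26.7% of cells with Foxp3 only. For S1pr1 the shares were 47.2% and 80.2%, and for Nr4a1 24.6% and 8.40%. The part of this overlap in the split was not tested.

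Among members, Polr1b showed the largest ratio by Il2ra and Foxp3, 12.4 and 2.72 CPM, but it rests on 54 and 8 UMIs (log2 2.19, interval 1.11 to 3.47). Mettl1 had 80.3 CPM with Il2ra only and 22.5 CPM with Foxp3 only (1.84), Nop16 62.2 and 19.8 CPM (1.65), and Wdr12 81.9 and 26.9 CPM (1.61). Bysl (1.57), a small-subunit factor, and Gnl3 (1.502) followed, and Npm1, Nop14 and Polr1a shared the lowest ratio of 0.69. In the Lta-/- mouse the nucleolar sum was 7155 CPM with Il2ra only and 3894 CPM with Foxp3 only, and in the Foxp3eGFP mouse 7693 and 3558 CPM. The split held in each mouse, with 34 and 38 members higher. Markers of other cells differed with it. Double-positive thymocyte markers summed to 162 CPM with Il2ra only and 33.0 CPM with Foxp3 only, natural killer and innate lymphoid markers to 80.8 and 5.79 CPM, and gamma-delta T cell markers to 74.6 and 18.4 CPM. After the cells with markers of double-positive thymocytes, B, plasma, myeloid or erythroid cells were left out, the log2 ratio was 0.99 and 39 members were higher. The part of natural killer, innate lymphoid and gamma-delta T cells was not tested.

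Myc was distributed differently from the nucleolar genes in these classes. It stood at 90.4 CPM (81.7 to 99.8) in cells with Il2ra only, 76.8 (67.1 to 87.5) with both, 39.3 (36.7 to 42.1) with neither and 22.1 (17.1 to 28.2) with Foxp3 only. The intervals of the classes with Il2ra overlap each other and lie above the rest. Cells with both transcripts thus had more Myc than cells with neither (log2 0.97, interval 0.75 to 1.18) while their nucleolar sum was slightly lower (log2 -0.11, and -0.39 after thinning).

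**Figure D3:**
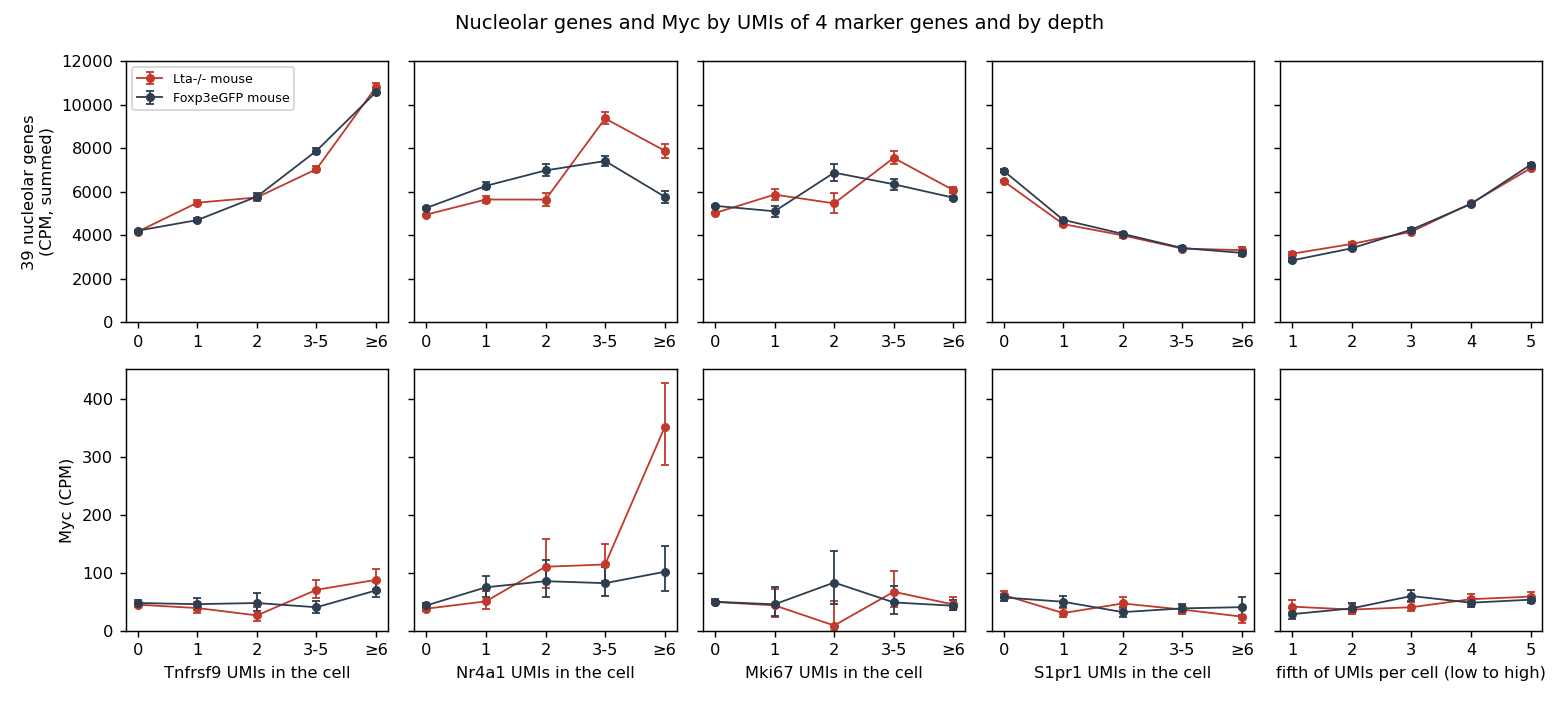
Nucleolar sum (top) and Myc (bottom), in CPM, by the UMIs of Tnfrsf9, Nr4a1, Mki67 and S1pr1 in the cell and by 5 equal groups of total UMIs, for the Lta-/- mouse (red) and the Foxp3eGFP mouse (dark); points are pooled levels and bars exact 95% counting intervals. The nucleolar sum climbs with Tnfrsf9 and with depth and declines with S1pr1 in both mice, and Myc is highest at 6 or more Nr4a1 UMIs, with 351 CPM in the Lta-/- mouse and 102 CPM in the Foxp3eGFP mouse.

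Nr4a1 is an immediate early gene that T cell receptor signals switch on within a short time. Myc was higher with it, at 96.9 CPM in the 592 cells with Nr4a1 and 40.3 CPM in the 4046 cells without, a 2.41-fold difference (log2 1.27, interval 1.10 to 1.43). In the Lta-/- mouse Myc had 119 CPM with Nr4a1 and 38.1 CPM without, and in the Foxp3eGFP mouse 81.9 and 43.6 CPM. The nucleolar sum was 6687 CPM with Nr4a1 and 5106 CPM without, 1.31-fold (log2 0.39, interval 0.37 to 0.41). Of the nucleolar genes 14 were at least 1.5-fold higher and 0 lower, where 5.59% of all genes were higher and 6.81% lower. The median log2 ratio was 0.51 over the members and 0.02 over all genes, and median depth was 6347 UMIs with Nr4a1 and 5460 without. Gnl3 led them with 156.7 and 86.2 CPM (log2 0.86), with Polr1b (0.86), Bysl (0.84), Rrp12 (0.81), Ltv1 (0.72) and Nolc1 (0.70) next. Gnl3 had 152 CPM with Nr4a1 and 84.3 CPM without in the Lta-/- mouse, and in the Foxp3eGFP mouse 160 and 86.3 CPM. Nolc1 had 170 and 91.2 CPM in the Lta-/- mouse, and 147 and 101 CPM in the Foxp3eGFP mouse. Utp20 (0.16), Nop14 (0.16) and Npm3 (0.14) were lowest. Averaged over the 5 depth groups, 5 members were higher, and without cells that held Mki67 or Top2a 24 were. Plasma cell markers, 4 of 4 lower, summed to 8.51 CPM with Nr4a1 and 385 CPM without, natural killer and innate lymphoid markers, 3 of 3 lower, to 6.27 and 36.7 CPM, and double-positive thymocyte markers, 4 of 6 lower, to 54.2 and 93.9 CPM.

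Nr4a1 cells were often Tnfrsf9 cells too (59.5%, against 29.7% of cells without Nr4a1), and crossing the genes parted Myc from the nucleolar sum. The 1201 cells with Tnfrsf9 and without Nr4a1 had a nucleolar sum of 6934 CPM and 39.01 CPM of Myc. The 240 cells with Nr4a1 and without Tnfrsf9 had 3966 CPM and 94.8 CPM of Myc. The 2845 cells with neither had 4183 CPM and 40.9 CPM of Myc. Tnfrsf9 without Nr4a1 thus went with a log2 difference of 0.73 in the nucleolar sum and of -0.07 in Myc (interval -0.26 to 0.12), and Nr4a1 without Tnfrsf9 with -0.08 and 1.21 (interval 0.95 to 1.47). The 352 cells with both were high in each, at 8209 CPM and 98.1 CPM of Myc. Other crossings, whose classes include cells with Nr4a1, did not all leave Myc level by Tnfrsf9. Among cells without S1pr1 Myc was higher with Tnfrsf9 (log2 0.40, interval 0.21 to 0.59). It was also higher among cells without Mki67 (0.26, interval 0.09 to 0.42). Among cells with S1pr1 it was lower, at 31.3 CPM with Tnfrsf9 and 40.9 CPM without.

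Both mice showed the same separation in the classes by Tnfrsf9 and Nr4a1. Cells with Tnfrsf9 and without Nr4a1 had 34.3 CPM of Myc in the Lta-/- mouse and 43.1 in the Foxp3eGFP mouse, and cells with neither had 39.7 and 43.9. Cells with Nr4a1 and without Tnfrsf9 had a nucleolar sum of 4058 CPM in the Lta-/- mouse and 3885 in the Foxp3eGFP mouse, beside 4176 and 4241 CPM in cells with neither. At equal depth the log2 differences for Tnfrsf9 without Nr4a1 were 0.68 for the nucleolar sum and -0.07 for Myc, and for Nr4a1 without Tnfrsf9 they were 0.05 and 1.29. Nr4a1 is also known to respond to the handling of cells. Of the 11 measured dissociation stress genes, 6 were at least 1.5-fold higher with Nr4a1 and 0 lower. Their whole list of 15 genes summed to 3084 CPM with Nr4a1 and 2451 CPM without. The part of handling was not tested.

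**Figure D4:**
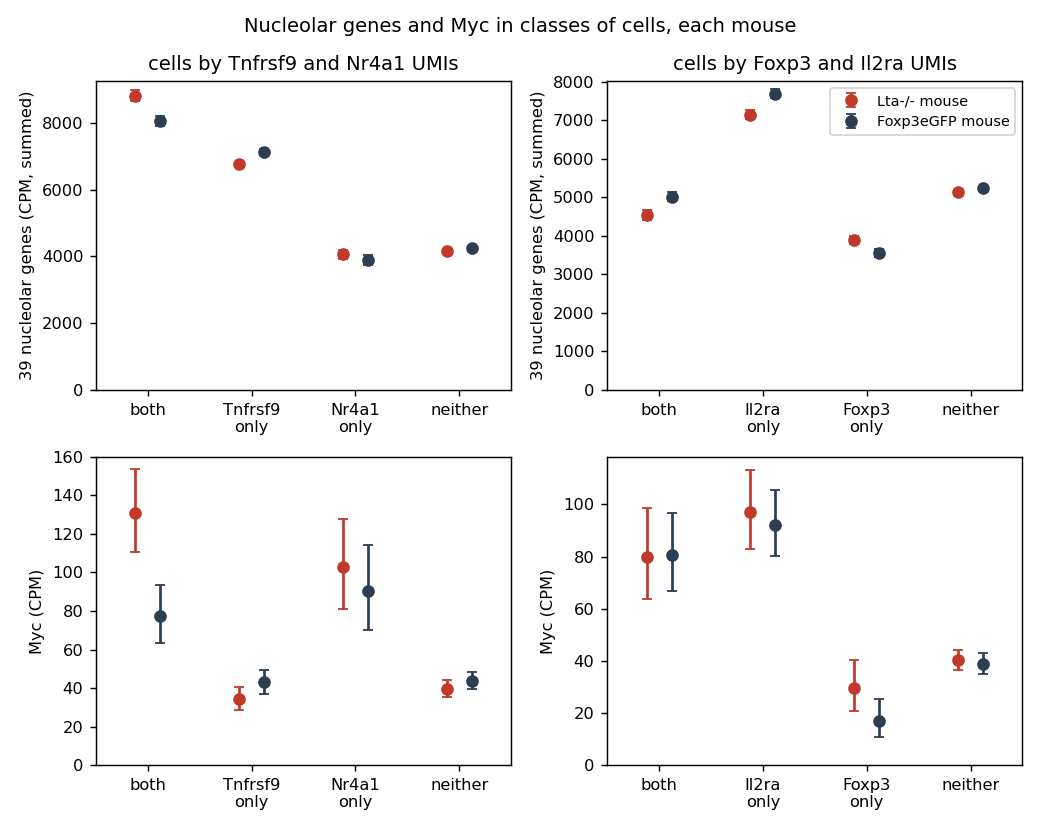
Nucleolar sum (top) and Myc (bottom), in CPM, in cells classed by Tnfrsf9 and Nr4a1 UMIs (left) and by Foxp3 and Il2ra UMIs (right), for the Lta-/- mouse (red) and the Foxp3eGFP mouse (dark), with exact 95% counting intervals. The nucleolar sum is high wherever Tnfrsf9 was found, Myc is high wherever Nr4a1 or Il2ra was found, and of the Foxp3 and Il2ra classes cells with Foxp3 only are lowest for both.

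Myc and the nucleolar genes were still linked cell by cell. The nucleolar sum was 7328 CPM in the 849 cells with Myc and 4686 CPM in the 3789 cells without (log2 0.65, interval 0.63 to 0.66). It was 6008 CPM at 1 Myc UMI, 7111 at 2, 9922 at 3 to 5 and 12266 CPM in the 30 cells with 6 or more. Median depth rose along the same steps, at 6378, 7101, 8466 and 12593 UMIs. Of the 39 nucleolar genes 26 were at least 1.5-fold higher, where 6.83% of all genes were higher and 5.83% lower. The median log2 ratio was 0.73 over the members and -0.05 over all genes. Gnl3 led with 160.1 and 75.6 CPM (log2 1.08), followed by Rrp1b (1.03), Nop2 (1.02), Nolc1 (0.96), Rrp12 (0.94) and Polr1b (0.93). Noc4l (0.40), Polr1c (0.35) and Pes1 (0.35) were lowest. Myc is scarce, so a cell with more UMIs shows it more often, and cells with Myc had a median of 6814 UMIs against 5347 without. Thinned to 3000 UMIs the log2 ratio was 0.48 with 19 members higher, and averaged over the 5 depth groups it was 0.33 with 7 higher. Proliferation markers were also higher with Myc, 17 of 20 by at least 1.5-fold, and so were 3 of 4 plasma cell markers, which summed to 676 CPM with Myc and 219 CPM without. Leaving out cells with Mki67 or Top2a gave a log2 ratio of 0.59, and leaving out cells with markers of double-positive thymocytes, B, plasma, myeloid or erythroid cells gave 0.62. Double-positive thymocyte markers, 4 of 6 higher, summed to 159 CPM with Myc and 65.3 CPM without, gamma-delta T cell markers, 4 of 4 higher, to 90.8 and 30.7 CPM, and natural killer and innate lymphoid markers, 1 of 3 higher, to 81.7 and 16.3 CPM. The part of natural killer, innate lymphoid and gamma-delta T cells was not tested.

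Mki67, a marker of cycling cells, divided the nucleolar genes little. The sum was 5964 CPM in 415 cells with Mki67 and 5183 CPM in 4223 cells without (log2 0.20, interval 0.19 to 0.22), and 0 members passed 1.5-fold in either direction, where 12.9% of all genes were higher and 18.9% lower. In the Lta-/- mouse alone 5 were higher and 1 lower, in the Foxp3eGFP mouse alone 0 and 2, after thinning 3 and 2, and over the depth groups 4 and 2. The median of all genes was itself at -0.12, and that of the members was 0.09. The snoRNP genes Nop58, Nhp2, Nop56 and Gar1 were highest (log2 0.54, 0.54, 0.52 and 0.51), and Polr1a, Heatr1 and Mettl1 lowest (-0.34, -0.47 and -0.54). Nop58 had 235 CPM with Mki67 and 150 CPM without in the Lta-/- mouse, and 227 and 163 CPM in the Foxp3eGFP mouse. The abundant Ncl lay at 0.40 and Npm1 at 0.09. Mettl1, the member with the largest Tnfrsf9 ratio, had 35.1 CPM with Mki67 and 51.1 CPM without.

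Cells with Mki67 were deep, with a median of 13565 UMIs against 5354, and the deeper groups did not show the pooled excess. In the third depth group the nucleolar log2 ratio was -0.07 (interval -0.20 to 0.06). In the fourth and the fifth it was -0.33 and -0.31. In the first and second it was 0.16 and 0.21. From the first to the fifth, the groups held 19, 11, 22, 34 and 329 cells with Mki67, so all but the fifth rest on few cells. Per mouse the pooled ratio was 0.31 in the Lta-/- mouse and 0.11 in the Foxp3eGFP mouse. Plasma cell markers, 3 of 4 of them higher, summed to 857 CPM with Mki67 and 206 CPM without, and double-positive thymocyte markers, 4 of 6 higher, to 194 and 63.1 CPM. Gamma-delta T cell markers, 4 of 4 higher, summed to 97.8 and 32.9 CPM, and natural killer and innate lymphoid markers, 1 of 3 higher and 2 lower, to 78.9 and 21.2 CPM. The Treg markers, 9 of 9 lower, summed to 707 CPM with Mki67 and 2138 CPM without. Without the cells with markers of other types the ratio was 0.13. High nucleolar levels were also found where Mki67 was not. The 106 cells with Mki67 and Tnfrsf9 stood at 7225 CPM and cells with Tnfrsf9 alone at 7246 CPM, but the mice went opposite ways, with 8082 and 7134 CPM in the Lta-/- mouse and 6609 and 7486 CPM in the Foxp3eGFP mouse. The 309 cells with Mki67 alone stood at 5484 CPM and cells with neither at 3784 CPM (log2 0.54), with median depths of 13407 and 5008 UMIs. The log2 difference was 0.29 after thinning and 0.27 without cells with markers of other types. Myc was 46.0 CPM with Mki67 and 49.0 CPM without (log2 -0.09, interval -0.29 to 0.10).

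Between the genotypes the nucleolar genes and Myc were nearly level. The nucleolar sum was 5212 CPM in Lta-/- cells and 5451 CPM in Foxp3eGFP cells (log2 -0.06, interval -0.08 to -0.05), and 0 of 39 members passed 1.5-fold, where 2.41% of 10709 genes were higher and 2.83% lower. The median log2 ratio was -0.07 over the members and 0.00 over all genes. Pes1 was highest, at 37.0 CPM in Lta-/- cells and 32.6 CPM in Foxp3eGFP cells (log2 0.18), and Polr1c lowest, at 34.2 and 38.97 CPM (-0.19). Of the nucleolar genes 30 lay below 0 and 9 above, but within the 5 depth groups the sign of the sum varied, at 0.15, 0.08, -0.03, 0.01 and -0.03 from low to high depth. Myc had 49.1 CPM in Lta-/- cells and 49.2 CPM in Foxp3eGFP cells (log2 -0.00, interval -0.15 to 0.15), with UMIs in 17.5% and 18.4% of cells. Plasma cell markers, 4 of 4 of them lower, summed to 14.3 CPM in Lta-/- cells and 673 CPM in Foxp3eGFP cells. Double-positive thymocyte markers, 4 of 6 lower, summed to 70.4 and 110 CPM, gamma-delta T cell markers, 2 of 4 lower, to 33.1 and 59.4 CPM, and 10 of 20 proliferation genes were lower and 0 higher. Myeloid markers, 3 of 5 measured ones higher and 1 lower, summed to 164 and 186 CPM. Natural killer and innate lymphoid markers, 1 of 3 higher and 1 lower, summed to 30.5 and 36.4 CPM. Without cells with markers of other cell types the nucleolar log2 ratio was -0.03.

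In the broad classes of cells the nucleolar sums of the 2 genotypes also lay close, and less so in some narrow ones. In cells with Tnfrsf9 the nucleolar sum was 7243 CPM in the Lta-/- mouse and 7358 CPM in the Foxp3eGFP mouse. In cells with Foxp3 only it was 3894 and 3558 CPM (log2 0.13, interval 0.07 to 0.19), and with Il2ra only 7155 and 7693 CPM (log2 -0.10, interval -0.14 to -0.07). With Foxp3 and Il2ra it was 4542 and 5021 CPM (log2 -0.14, interval -0.20 to -0.09). Narrow classes by Nr4a1 UMIs lay further apart, and not in 1 direction. At 1 and at 2 Nr4a1 UMIs the sum was 5644 and 5640 CPM in the Lta-/- mouse, and 6270 and 6978 CPM in the Foxp3eGFP mouse. At 3 to 5 and at 6 or more it was 9366 and 7883 CPM in the Lta-/- mouse, and 7412 and 5772 CPM in the Foxp3eGFP mouse. Cells with Tnfrsf9 made up 30.3% of Lta-/- cells and 35.5% of Foxp3eGFP cells. In most classes the interval of the Myc ratio, Lta-/- over Foxp3eGFP, held 0. The log2 ratio was 0.08 with Il2ra only (interval -0.23 to 0.38) and -0.02 with Foxp3 and Il2ra (-0.43 to 0.40). With neither transcript it was 0.05 (-0.16 to 0.25), and with Tnfrsf9 it was 0.16 (-0.08 to 0.40). Larger differences were found with Foxp3 only and with Nr4a1. Among cells with Foxp3 only the log2 ratio was 0.80 (interval 0.02 to 1.61), from 39 and 23 UMIs. Myc had 29.6 CPM in those Lta-/- cells and 16.97 CPM in those Foxp3eGFP cells. Among cells with Nr4a1 it had 119 CPM in Lta-/- cells and 81.9 CPM in Foxp3eGFP cells (log2 0.54, interval 0.26 to 0.84). Without Nr4a1 Myc was lower in Lta-/- cells, at 38.1 and 43.6 CPM (log2 -0.20, interval -0.38 to -0.02). Among cells with Myc the log2 ratio was 0.16 (interval 0.004 to 0.31).

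Read by their roles, some members lay high or low in several of these comparisons. Within RNA polymerase I, Polr1b was among the highest in log2 ratio with Tnfrsf9 (1.17), Nr4a1 (0.86), Myc (0.93) and Il2ra only over Foxp3 only (2.19), whereas Polr1a lay near the bottom with 0.26, 0.29, 0.41 and 0.69. Polr1b is the least abundant member and its ratios have the widest intervals. Of the nucleophosmin genes, Npm1 and Npm3 lay below Ncl and Nolc1 in all 4 of these comparisons. In the box C/D snoRNP, Nop58 had the largest ratios (0.83, 0.62, 0.80 and 1.43), and in the H/ACA snoRNP Nhp2 did (0.96, 0.55, 0.79 and 1.46). Among small-subunit factors Nop14 was low in each (0.54, 0.16, 0.47 and 0.69) and Rrp12 higher (1.33, 0.81, 0.94 and 1.24). Rrp12 is scarce as well, with 216 UMIs in all cells. Its last ratio rests on 49 and 14 UMIs and lies near the member median of 1.12. For the large subunit Gnl3 was high in each (0.95, 0.86, 1.08 and 1.502) and Pes1 was lower (0.73, 0.19, 0.35 and 0.79). These comparisons share their cells, so the recurrence is a description.

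Genes outside the 40 that serve the same process went the same way with smaller differences. Of 110 other ribosome biogenesis genes, 37 were at least 1.5-fold higher with Tnfrsf9 and 0 lower, with a median log2 of 0.42. The largest were Rrp15 (1.21), Tma16 (1.14) and Pno1 (1.10). With S1pr1 30 were lower and 0 higher (median -0.43), with Il2ra only over Foxp3 only 52 of 107 were higher and 0 lower (0.55), and between Lta-/- and Foxp3eGFP cells 0 passed either way (-0.03). The list called Myc-linked growth and metabolism had 23 of 40 genes higher with Tnfrsf9 and 0 lower. They were led by Hk2 (1.54), which encodes hexokinase 2, Shmt1 (1.43), an enzyme of one-carbon metabolism, and Srm (1.34), which makes spermidine. With Mki67 the same list had 15 higher and 1 lower, led by the Ran exchange factor gene Rcc1 (2.04) and by Mthfd2 (1.53), of mitochondrial one-carbon metabolism.

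Genes for the ribosomal proteins themselves were nearly level where the factors that assemble them were not. Of 81 measured, 1 was at least 1.5-fold higher with Tnfrsf9, Rps27l at 317 and 210 CPM, and 0 were lower, with a median log2 of -0.03. With S1pr1 and with Il2ra only over Foxp3 only 0 passed in either direction, with medians of 0.11 and 0.02. The partners and antagonists of MYC were mostly level too. Of the 11 measured, 0 were higher and 1 lower with Tnfrsf9, the antagonist gene Mxd3 at 13.4 CPM with Tnfrsf9 and 28.4 CPM without. With S1pr1 1 was higher, the antagonist gene Mxd1 at 75.5 CPM with S1pr1 and 38.6 CPM without. With Mki67 2 were higher and 4 lower. Among these, Mxd3 had 116 CPM with Mki67 and 0.477 CPM without, and Mxd1 had 18.2 and 66.9 CPM.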

How the data were processed

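Per the labels' protocols, a 10x 3′ v3.1 messenger RNA library and a hashtag library were made from 1 capture of both mice. The submitters' processing notes name Cell Ranger 6.0.1 and the mm10 build. The deposited values are raw UMI counts per gene and cell and hashtag counts per cell, and how reads shared by several genes were counted is not given in the sources used here. Of 4798 barcodes, 4638 were kept, with a minimum of 500 genes and a maximum of 10% of UMIs from mitochondrial genes. A cell was given a genotype when it held at least 10 hashtag counts and 80% of them were of 1 hashtag. Doublets were recognised by hashtags only, so doublets within a genotype remain. The hashtag numbers in the feature names differ from the antibody numbers in the labels, and the genotype was taken from the feature names. Own and other hashtag had medians of 3501.5 and 42 counts in Lta-/- cells, and 5096 and 30 in Foxp3eGFP cells.

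Classes were cells with at least 1 UMI of a gene against cells with 0. A level in CPM is the gene's UMIs in a class, pooled, per 1000000 of all UMIs there. A log2 ratio is of these CPM values, with an exact binomial interval of the UMIs, and level intervals are exact Poisson. Genes with at least 50 UMIs in the 2 classes together were measured, 3 counts replaced a count of 0, and a gene was called higher or lower at 1.5-fold. For equal depth, cells were thinned to 3000 UMIs and classes set anew. Named members were taken mainly from the 6 highest and the 3 lowest ratios of a comparison, and not all of these are named in each. For S1pr1 more of the most negative ratios were named. Myc, Mettl1, Npm1, Ncl and subunits of a shared complex are given beside them. Members and lists were chosen with earlier results of these data known. Promoter sequences are from RefSeq (GRCm38.p6). Python 3.11.15 with numpy 2.4.6, scipy 1.17.1 and pandas 2.3.3 was used. The ratios were tried on simulated Poisson counts. Such counts lack the wider spread between the real cells, so this cannot show how well the intervals hold for them. Alternatives covered cell filters, depth, the class limit, single mice, cycling cells, cells with both hashtags or with markers of other types, and scaling.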

Additional observations from a re-analysis of the deposited data

Results flagged for a closer look

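Ltv1, a factor of small-subunit assembly, differed in opposite directions by Mki67 in the 2 mice. In the Lta-/- mouse it had 47.2 CPM with Mki67 and 35.2 CPM without (log2 0.42, interval 0.10 to 0.73, from 106 and 416 UMIs). In the Foxp3eGFP mouse it had 25.1 CPM with Mki67 and 36.1 CPM without (log2 -0.53, interval -0.88 to -0.18, from 83 and 422 UMIs). The difference between the mice was not tested, and it was the 1 member for which each mouse's interval lay on its own side of 0.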

How the results depend on the processing

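Directions of the nucleolar sum held under every alternative tried for Tnfrsf9, Nr4a1, S1pr1, Il2ra only over Foxp3 only and Myc, and turned for Mki67 and genotype. For Nr4a1 without Tnfrsf9 over neither, the sum was at -0.08, but at 0.05 thinned and 0.06 without cells with Mki67 or Top2a. Averaged over 5 depth groups the log2 ratio was -0.068 for Mki67, 0.56 for Tnfrsf9, 0.27 for Nr4a1, -0.60 for S1pr1, 0.77 for Il2ra only over Foxp3 only, 0.33 for Myc and 0.034 for Lta-/- over Foxp3eGFP. Thinned, it was 0.14, 0.72 and 0.35 for Mki67, Tnfrsf9 and Nr4a1, 0.79 for Il2ra only over Foxp3 only, 0.48 for Myc and -0.014 for genotype. In the Lta-/- mouse alone it was 0.31 for Mki67, 0.48 for Nr4a1 and 0.88 for Il2ra only over Foxp3 only. In the Foxp3eGFP mouse alone it was 0.11, 0.33 and 1.11 for these, -0.81 for S1pr1 and 0.71 for Myc. With at least 2 UMIs of the class gene it was 0.98 for Tnfrsf9, 0.50 for Nr4a1, -0.87 for S1pr1 and 0.93 for Myc. Without cells with Mki67 or Top2a it was 0.94, 0.51, -0.77 and 0.59 for these. Without cells with markers of other types it was 0.13 for Mki67, 0.88 for Tnfrsf9, 0.44 for Nr4a1, 0.62 for Myc and -0.035 for genotype, and without cells with both hashtags -0.78 for S1pr1 and 0.68 for Myc. As a mean over cells it was 0.46 for Nr4a1, -0.72 for S1pr1, 0.95 for Il2ra only over Foxp3 only, 0.58 for Myc and -0.00706 for the nucleolar sum, Lta-/- cells over Foxp3eGFP cells. With each member weighted the same it was 0.089, 0.75, 0.51, -0.80, 1.12 and 0.73 for Mki67, Tnfrsf9, Nr4a1, S1pr1, Il2ra only over Foxp3 only and Myc. With totals without mitochondrial and ribosomal protein genes it was 0.082, 0.78, 0.34 and -0.70 for Mki67, Tnfrsf9, Nr4a1 and S1pr1. Relative to the median of all genes it was 0.32 for Mki67, 0.77 for Tnfrsf9, -0.68 for S1pr1 and 0.70 for Myc. Members at least 1.5-fold higher numbered 21 for Tnfrsf9, 5 for Nr4a1 and 7 for Myc over the depth groups, 9 for Nr4a1 in the Foxp3eGFP mouse and 24 without cycling cells. Member counts, the crossed classes and the limit of 30 UMIs were added after the data were seen.

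The cause of these changes was not tested. No paired analysis was possible because each genotype has 1 mouse. For the comparisons of classes, ratios are given within each mouse, and no paired test over the 2 mice was run.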

Other observations

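Among genes outside the 40, Srm had the highest ratio of nucleolar UMIs, cells with it over cells without, in cells thinned to 3000 UMIs. Cells with Srm, the spermidine synthase gene, held 28.9 nucleolar UMIs and cells without it 12.1 (log2 1.26). Snhg15 (1.04), a snoRNA host gene, Tma16 (1.00), Gadd45b (0.98), a stress-induced gene, Rrp15 (0.95) and Ppan (0.94), both factors of the large subunit, came next. Among the lowest were Rac2 (-0.85) and Gnai2 (-0.75), which act in cell motility and G protein signalling, with Itm2b (-0.80), Ltb (-0.77), which encodes lymphotoxin beta, Shisa5 (-0.77) and S1pr1 (-0.75). Of 19 maturation and egress genes, 0 lay above 0 (median -0.52), against 90 of 96 other ribosome biogenesis genes (0.39) and 7 of 8 ribosomal protein genes that were absent from enough cells to be compared (0.20).

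The gap in Myc between the mice was widest in the cells with the most Nr4a1, a class looked at after its values were seen. Among cells with at least 6 Nr4a1 UMIs, Myc was found in 26 of 37 Lta-/- cells (70.3%, interval 53.02% to 84.1%) and in 9 of 38 Foxp3eGFP cells (23.7%, interval 11.4% to 40.2%). The cells held 100 Myc UMIs (351 CPM) in the Lta-/- mouse and 29 (102 CPM) in the Foxp3eGFP mouse. Their nucleolar sum was 7883 CPM in the Lta-/- mouse and 5772 CPM in the Foxp3eGFP mouse. Nr4a1 itself was alike, at 1098 CPM in Lta-/- cells and 1125 CPM in Foxp3eGFP cells, and median depth was 6960 and 6726 UMIs. At 3 to 5 Nr4a1 UMIs the shares of cells with Myc were 37.5% in Lta-/- cells and 35.3% in Foxp3eGFP cells, and at 1 or 2 they were 20.7% and 23.7%. Myc levels at 3 to 5 were 114 CPM in Lta-/- cells and 82.0 CPM in Foxp3eGFP cells, and at 1 or 2 they were 64.3 and 77.7 CPM. Other genes differed in the same cells, with Foxp3 in 35.1% of Lta-/- cells and 15.8% of Foxp3eGFP cells and Il2ra in 67.6% and 50%. Each of these groups of cells came from 1 mouse, and the part of genotype was not tested.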
